A study of Chlamydomonas reinhardtii with 6 samples.

Results

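The 10 nuclear genes described here belong to carbon fixation in the unicellular green alga Chlamydomonas reinhardtii, and were followed in cultures with excess manganese and in control cultures. They were chosen by gene identifier, under a rule that uses no measured value, and all 10 are among the 17741 gene models of the deposited table. They are the Rubisco small subunit genes RBCS1 and RBCS2, the Rubisco activase gene RCA1, the glyceraldehyde phosphate dehydrogenase gene GAP3, and 6 genes for the recycling of the carbon dioxide acceptor (PRK1, SBP1, FBP1, TRK1, FBA3 and RPE1). None was absent and none was under 1 FPKM, a unit that divides the fragments of a gene by the length of its transcript and by the size of the library.

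Poly-A RNA of strain CC-4532 was sequenced from 3 flasks with 1000 µM manganese and 3 control flasks with 6 µM manganese. All 6 flasks held acetate-containing TAP medium, were inoculated from a starter culture, and grew at 24 °C under continuous light to 3000000 cells per mL. The replicates are therefore separate flasks of a single strain that share an inoculum, and with acetate present the cells did not depend on carbon fixation alone. No measurement in the table checks the manganese labels.

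In the Calvin-Benson cycle, Rubisco joins carbon dioxide to the acceptor ribulose bisphosphate. The product is reduced to triose phosphate with ATP and NADPH from the light reactions, and most of that triose is rearranged by aldolase, transketolase, bisphosphatases and an epimerase to rebuild the acceptor. The Rubisco large subunit is encoded in the chloroplast and the small subunit in the nucleus. In algae and plants, several enzymes of the cycle are switched on in the light through reduction by thioredoxin, a control that acts on the protein and that RNA values do not show.

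Across the libraries the FPKM values summed to 629620 to 767912, and the 10 genes held 3.15% to 3.65% of that sum. FPKM values do not keep the sequencing depth, so no counting interval can be given. The steps between very low values gave a relative number of reads behind 1 FPKM of 0.717 to 1.04 in the 1000 µM libraries and 1 to 1.13 in the 6 µM libraries. The libraries 1000 µM replicate 3 and 6 µM replicate 1 stood apart: across the 12543 tested genes their deviations from their group means correlated at 0.75, a description across genes. The log2 difference of each of the 10 genes is also given without both.

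All 10 genes had a higher mean at 1000 µM manganese than at 6 µM, by 1.07-fold to 1.32-fold, with RBCS2 turning lower after quantile normalization, and none of these differences passed the test. In limma's moderated test on log2(FPKM + 1), with Benjamini-Hochberg adjustment over the 12543 genes averaging 1 FPKM or more, the adjusted p was 1.00 for each of the 10. The background was the same, since 0% of all tested genes passed (0 of 12543, with a smallest limma adjusted p of 0.0778). At an unadjusted p under 0.05, limma gave 1 of the 10 genes, RBCS1, which was higher at 1000 µM; the share was 2.82% of all tested genes, or 1.08% counting only those higher at 1000 µM. FPKM values are shares of the RNA pool, so a larger share of the pool and a larger number of transcripts per cell cannot be told apart.

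**Figure D1:**
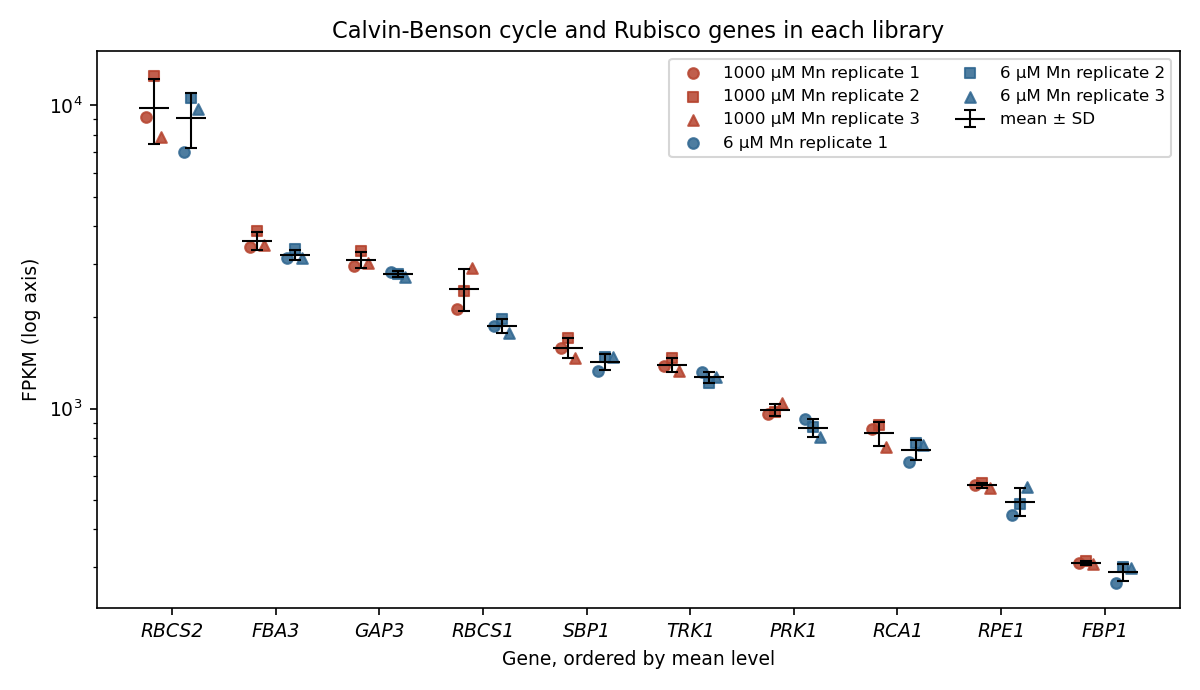
FPKM (log axis) of the 10 genes in each library, ordered by mean level, with 1000 µM manganese (red) left of 6 µM (blue); symbols are libraries and black bars are mean ± SD (n = 3 per group). RBCS2 stood above all others, and the groups did not overlap for RBCS1, FBA3, GAP3, TRK1, PRK1 and FBP1.

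The genes kept the same order of levels in each of the 6 libraries, and their means over all libraries spanned 31.6-fold. RBCS2 came first with a mean of 9464 FPKM, second among all gene models of the table. It was followed by FBA3 (3396 FPKM), GAP3 (2933 FPKM) and RBCS1 (2180.3 FPKM). SBP1 (1509.8 FPKM) and TRK1 (1332 FPKM) lay in the middle, and PRK1 (929 FPKM), RCA1 (780.2 FPKM), RPE1 (526 FPKM) and FBP1 (299 FPKM) were lowest. Of the 9 pairs of neighbours in this order, 4 had ranges that overlapped across libraries: FBA3 with GAP3, GAP3 with RBCS1, SBP1 with TRK1, and PRK1 with RCA1. Between both bisphosphatase genes, SBP1 was higher than FBP1 in 6 of 6 libraries. FPKM is per length, so transcript length is already divided out of this gap. Other differences in how reads of the genes are recovered were not examined.

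The 2 small subunit genes are neighbours on chromosome 2. RBCS1 (Cre02.g120100.v5.5) runs from 6936683 to 6941921 and RBCS2 (Cre02.g120150.v5.5) from 6941968 to 6943439 in the RefSeq table of assembly Chlamydomonas_reinhardtii_v5.5, which leaves 46 bp between them. Their products are nearly identical small subunits of Rubisco, so reads may have been divided between the copies by the authors' counting, and the separate values are uncertain.

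RBCS1 had 2124, 2445 and 2897 FPKM in the 1000 µM libraries, against 1878, 1967 and 1771 FPKM in the 6 µM libraries. Every 1000 µM library lay above every 6 µM library. RBCS1 averaged 2489 ± 388 FPKM with 1000 µM manganese, against 1872 ± 98.4 FPKM with 6 µM (SD, n = 3 each). The log2 difference was 0.40 (standard error 0.14), a fold of 1.32 with a 95% interval of 1.06 to 1.64, unadjusted for the number of genes. The unadjusted limma p was 0.0188 (adjusted p = 1.00). The highest library was 1000 µM replicate 3: without it the log2 difference was 0.28, and without both libraries that stood apart it was 0.29. The unadjusted p was no longer under 0.05 without 1000 µM replicate 3, without 6 µM replicate 3, with the same FPKM sum per library or after quantile normalization.

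RBCS2 had 9139.9, 12480.3 and 7847 FPKM in the 1000 µM libraries, against 7034, 10600.9 and 9684 FPKM in the 6 µM libraries. The groups overlapped, and the lowest value of each group belonged to the library that stood apart. RBCS2 averaged 9822 ± 2391 FPKM with 1000 µM manganese, against 9106 ± 1852 FPKM with 6 µM (SD, n = 3 each). The log2 difference of 0.10 (standard error 0.21) changed sign with the libraries used, to -0.083 without 1000 µM replicate 2 and to -0.072 without 6 µM replicate 1. It was also -0.028 after quantile normalization, and 0.076 without both libraries that stood apart. Its interval, from 0.77-fold to 1.50-fold, was the widest of the 10 genes.

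Together the small subunit genes gave 11264, 14926 and 10744 FPKM in the 1000 µM libraries, against 8912, 12568 and 11455 FPKM in the 6 µM libraries. The groups overlapped for this sum, which is less affected than either gene alone by a division of reads between the copies. RBCS2 made up 81.1%, 83.6% and 73.0% of it at 1000 µM and 78.9%, 84.3% and 84.5% at 6 µM. The group means of this share were 79.3% ± 5.53 at 1000 µM and 82.6% ± 3.19 at 6 µM (SD, n = 3 each). The difference was -3.34 percentage points, smaller in size than the SD within the 1000 µM group and just above that within the 6 µM group. The size of this difference rested on single libraries: leaving out 1000 µM replicate 3 made it -0.22 percentage points, while it was -5.51 when 1000 µM replicate 2 was omitted and -5.18 when 6 µM replicate 1 was. Without both libraries that stood apart it was -2.06 percentage points.

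**Figure D2:**
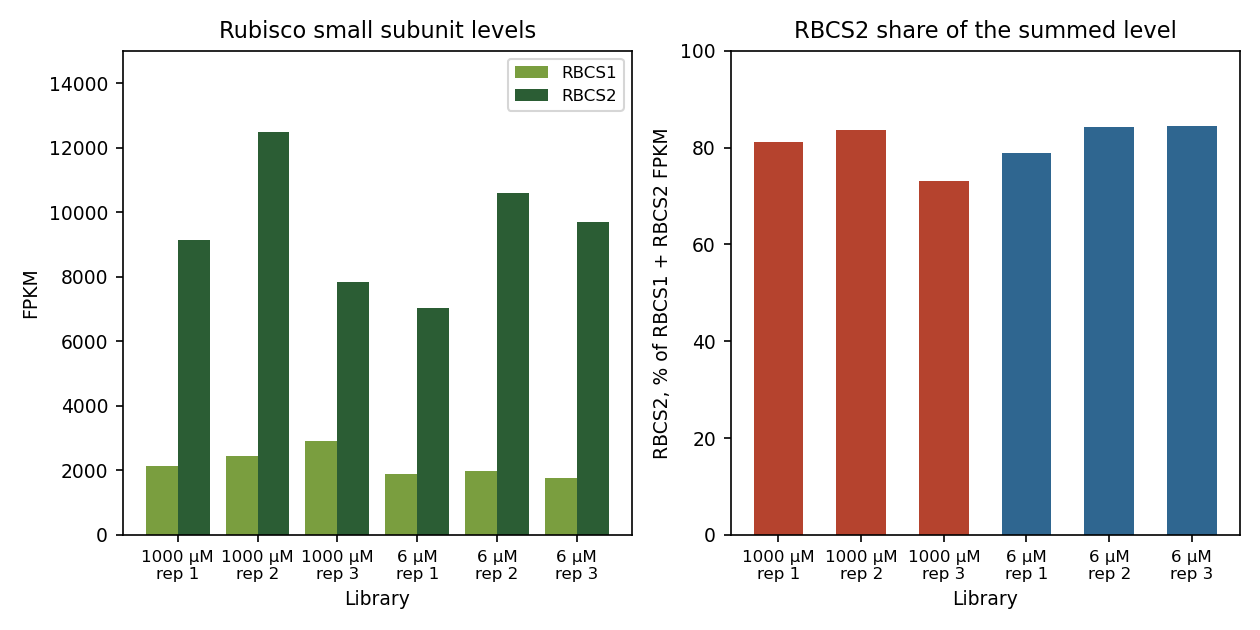
Left, FPKM of RBCS1 and RBCS2 in each library. Right, RBCS2 as a percentage of the summed FPKM of both genes, with 1000 µM libraries in red and 6 µM libraries in blue; it ranged from 73.0% in 1000 µM replicate 3 to 84.5% in 6 µM replicate 3.

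RCA1 (Cre04.g229300.v5.5, chromosome 4 from 3728598 to 3732872) encodes Rubisco activase, which frees Rubisco of inhibitory sugar phosphates. It had 858, 882 and 745 FPKM in the 1000 µM libraries, against 667, 769.9 and 759 FPKM in the 6 µM libraries. The groups overlapped, because 1000 µM replicate 3 lay below 6 µM replicates 2 and 3. The log2 difference was 0.18 (standard error 0.12), a fold of 1.13 with an interval of 0.934 to 1.37. Without 6 µM replicate 1 the log2 difference of RCA1 was 0.11.

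GAP3 (Cre01.g010900.v5.5, chromosome 1 from 2039260 to 2042765) encodes the chloroplast glyceraldehyde phosphate dehydrogenase, the reducing step of the cycle. It had 2942, 3308 and 3029.8 FPKM in the 1000 µM libraries, against 2826, 2786 and 2706 FPKM in the 6 µM libraries. The groups did not overlap, and GAP3 was the steadiest gene at 6 µM, with a coefficient of variation of 2.21%. The log2 difference was 0.16 (standard error 0.11), a fold of 1.11 with an interval of 0.941 to 1.32.

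Among the genes that rebuild the acceptor, FBA3 (Cre05.g234550.v5.5, chromosome 5 from 2060640 to 2063875), a chloroplast aldolase, was the most abundant. It had 3418, 3857 and 3463 FPKM in the 1000 µM libraries, against 3132, 3363 and 3143 FPKM in the 6 µM libraries. The groups did not overlap, and the fold was 1.11 with an interval of 0.935 to 1.32. TRK1 (Cre02.g080200.v5.5, chromosome 2 from 984214 to 988819), the transketolase that moves carbon units between sugar phosphates, had 1381, 1469 and 1333 FPKM at 1000 µM, against 1323, 1219 and 1269 FPKM at 6 µM. Its groups also did not overlap, though 1000 µM replicate 3 exceeded 6 µM replicate 1 by a log2 difference of just 0.010. The fold of TRK1 was 1.10 with an interval of 0.927 to 1.30.

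The bisphosphatases remove a phosphate in irreversible steps. SBP1 (Cre03.g185550.v5.5, chromosome 3 from 5486878 to 5489490), the sedoheptulose bisphosphatase, had 1589.9, 1714 and 1466 FPKM in the 1000 µM libraries, against 1332, 1478 and 1478 FPKM in the 6 µM libraries. Its groups overlapped through 1000 µM replicate 3, and the fold was 1.11 with an interval of 0.927 to 1.33. FBP1 (Cre12.g510650.v5.5, chromosome 12 from 1935474 to 1938770), the fructose bisphosphatase, had 309.9, 314 and 306 FPKM at 1000 µM, against 267, 299.6 and 298 FPKM at 6 µM. Its groups did not overlap, yet 6 µM replicates 2 and 3 came close to the 1000 µM libraries. The fold of FBP1 was 1.08 with an interval of 0.913 to 1.27, and the log2 difference of 0.11 became 0.053 without 6 µM replicate 1.

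RPE1 (Cre12.g511900.v5.5, chromosome 12 from 1825706 to 1828406) encodes the epimerase that yields ribulose phosphate. It had 562, 568 and 548 FPKM in the 1000 µM libraries, against 447, 483 and 549.8 FPKM in the 6 µM libraries. The 1000 µM libraries lay close together, with a coefficient of variation of 1.85% against 10.5% at 6 µM, and the groups overlapped by 6 µM replicate 3. The fold was 1.14 with an interval of 0.946 to 1.36, and the log2 difference of 0.18 became 0.12 without 6 µM replicate 1.

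PRK1 (Cre12.g554800.v5.5, chromosome 12 from 7636065 to 7639700) encodes phosphoribulokinase, which makes the acceptor itself. It had 961, 974 and 1043 FPKM in the 1000 µM libraries, against 921, 868 and 808 FPKM in the 6 µM libraries. The groups did not overlap, and the log2 difference was 0.20 (standard error 0.11). The fold was 1.15 with an interval of 0.965 to 1.36, and the unadjusted limma p was 0.104.

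**Figure D3:**
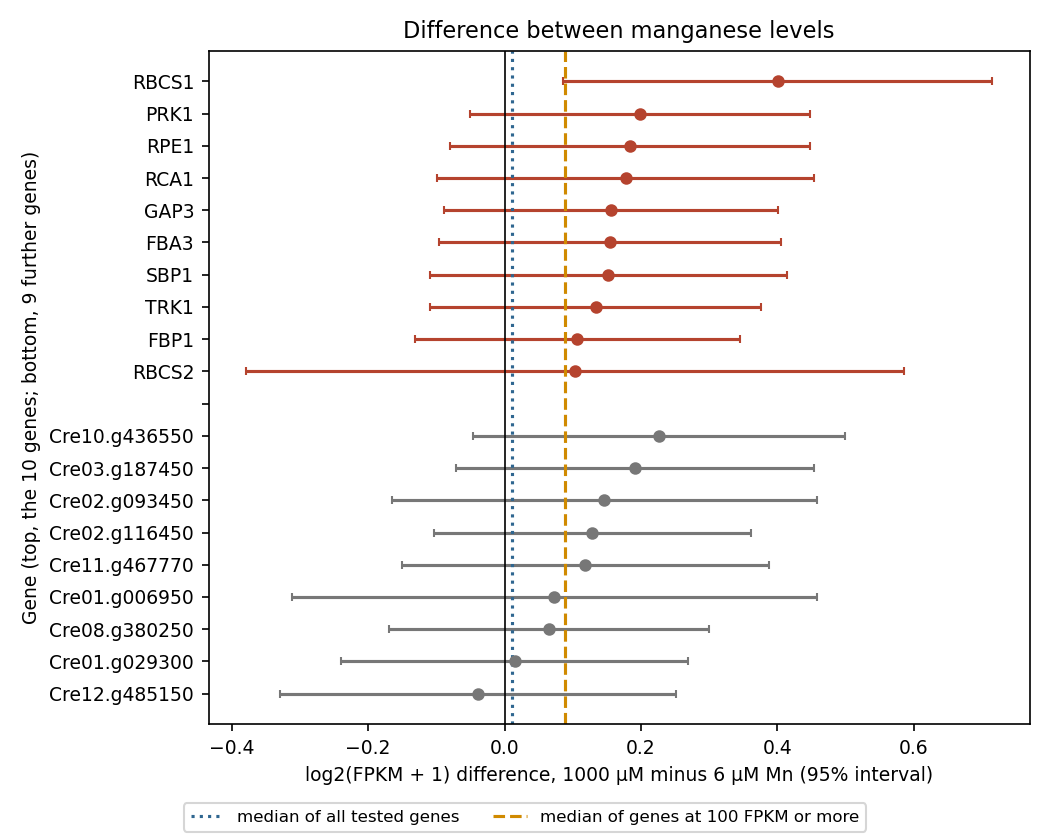
Difference of log2(FPKM + 1), 1000 µM minus 6 µM manganese, with 95% intervals, for the 10 genes (red) and 9 further genes of the cycle, its partners and other isoforms (grey). The interval of RBCS1 is the only one that leaves out 0; dotted and dashed lines mark the medians of all tested genes (0.011) and of genes at 100 FPKM or more (0.089).

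The median log2 difference over the 10 genes was 0.16, against 0.011 over all 12543 tested genes and 0.089 over the 677 abundant genes, those averaging 100 FPKM or more. FBP1, the lowest of the 10 by mean level, ranked 299 among all gene models. The abundant class therefore reaches well below the 10 genes and is not matched to them in level. For 6 of the 10 genes every 1000 µM library lay above every 6 µM library, and for the other 4 the groups overlapped. The same non-overlap, higher at 1000 µM, was found for 4.34% of all tested genes and for 15.4% of the abundant ones; non-overlap in the lower direction was found for none of the 10 and for 3.70% of all tested genes. A positive log2 difference, which all 10 genes had, was found for 53.7% of all tested genes and 81.2% of the abundant ones. The 10 genes share libraries and are not independent replicates of the comparison.

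The count of 6 depended on how libraries were scaled. The sum of FPKM was 701135, 767912 and 689724 in the 1000 µM libraries, against 629620, 719323 and 682493 in the 6 µM libraries. With each library scaled to the same sum, the groups of 1 of the 10 genes (RBCS1) did not overlap, against 0.662% of all tested genes and 1.92% of the abundant ones. The median over the 10 genes was then 0.067, that over all tested genes -0.061 and that over the abundant ones 0.0013. After quantile normalization the count was again 1 of 10 (SBP1), against 3.72% of all tested genes and 2.51% of the abundant ones. The median over the 10 was then 0.052, against 0.0060 over all tested genes and -0.0081 over the abundant ones. All log2 differences of the 10 genes stayed positive under both these scalings, other than that of RBCS2 after quantile normalization. Median-of-ratios scaling kept the count at 6 of 10, against 4.23% of all tested genes and 14.9% of the abundant ones, with a median of 0.15 over the 10. It hardly moved the differences, with RBCS1 going from a log2 difference of 0.400 to 0.398, so it adds little as a check.

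For the FPKM values as deposited, the intervals also bound the size of a change, at the 95% level per gene. They do not cover the choice of scaling. With the same FPKM sum per library, the median log2 difference of the 10 genes fell from 0.16 to 0.067. For 8 of the 10 genes the upper bound lay under 1.5-fold, and the exceptions were RBCS1 at 1.64-fold and RBCS2 at 1.50-fold. The lower bound was at least 0.913-fold for every gene other than RBCS2, where it was 0.769-fold.

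The genes did not all follow the same libraries. In 1000 µM replicate 2, which had the largest sum of FPKM and the fewest reads behind 1 FPKM, 8 of the 10 genes had their highest value, the exceptions being RBCS1 and PRK1, which were highest in 1000 µM replicate 3. In 6 µM replicate 1, which had the smallest sum, 6 of the 10 had their lowest value: RBCS2, RCA1, SBP1, FBP1, FBA3 and RPE1. The part of depth in these values was not tested.

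**Figure D4:**
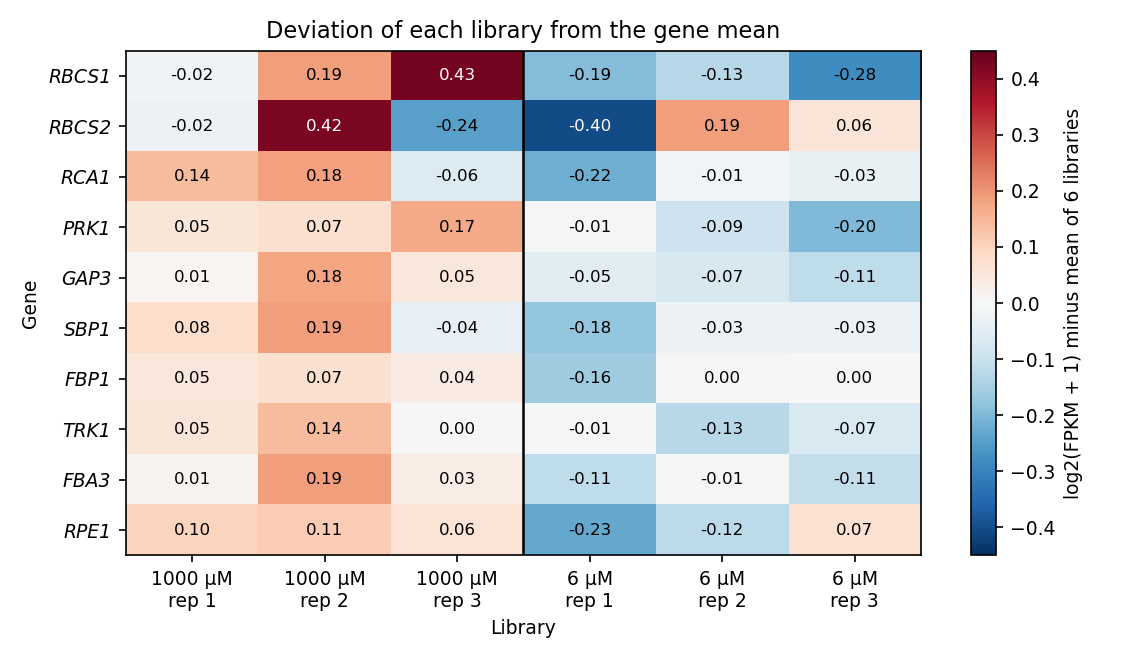
Deviation of each library from the mean of 6 libraries on the log2(FPKM + 1) scale, for the 10 genes, with the 1000 µM libraries left of the line and the 6 µM libraries right of it. RBCS1 reaches 0.43 in 1000 µM replicate 3, where RBCS2 is at -0.24.

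The libraries that stood apart moved these genes in differing ways. RBCS2 was lower in both, by a log2 difference of -0.44 for 1000 µM replicate 3 against the other 1000 µM libraries and of -0.53 for 6 µM replicate 1 against the other 6 µM libraries. RCA1 (-0.22 and -0.20) and SBP1 (-0.17 and -0.15) were lower in both as well. PRK1 was higher in both, by 0.11 and 0.14. RBCS1 was higher by 0.35 in 1000 µM replicate 3 and differed by 0.0089 in 6 µM replicate 1. Across all tested genes, the quartiles of these shifts lay at -0.17 and 0.22 for 1000 µM replicate 3 and at -0.14 and 0.15 for 6 µM replicate 1. Across the abundant genes they lay at -0.24 and 0.27 and at -0.24 and 0.15. RCA1, SBP1 and PRK1 were within the quartiles of the abundant genes in both libraries. RBCS2 was below them in both, and RBCS1 was above them in 1000 µM replicate 3. Each of these libraries comes from a different manganese level, so the manganese difference could also be read without them. Among the other 4 libraries the log2 difference was positive for all 10 genes, from 0.062 for FBP1 to 0.29 for RBCS1, with RBCS2 at 0.076, RPE1 at 0.13, FBA3 and SBP1 at 0.16 each, GAP3 at 0.18, RCA1 at 0.19, TRK1 at 0.20 and PRK1 at 0.21. The groups of 9 genes, all but RBCS2, did not overlap in these 4 libraries, against 18.4% of all tested genes and 37.1% of the abundant ones that were higher without overlap. Leaving libraries out cannot make separate groups overlap, so the 6 genes separated across all libraries had to stay separated. The libraries left out were also picked from these same data, so the rise to 9 adds no support. No member passed the limma adjusted threshold in those 4 libraries, with a smallest adjusted p of 0.925.

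A further 9 genes of the cycle, its partners and other isoforms were counted from a list of identifiers that neither the table nor the reference annotates, so they are given by identifier alone. At the adjusted threshold 0 of 9 passed in either direction, and at an unadjusted limma p under 0.05 there were 0 of 9. Their median log2 difference was 0.12, with 8 positive and 1 negative, and the groups of 2 did not overlap, both higher at 1000 µM. Over the abundant genes 81.2% were positive and 15.4% higher without overlap, and over all tested genes these shares were 53.7% and 4.34%. The 8 of 9 positive is close to the share over the abundant genes. Some of the 9 lie outside that class, with means down to 28.8 FPKM, so it is not a matched class for all of them. Cre10.g436550.v5.5, with the highest log2 difference, had 1259.7, 1367 and 1506 FPKM in the 1000 µM libraries, against 1257, 1180.4 and 1091 FPKM in the 6 µM libraries. Its groups did not overlap, at a log2 difference of 0.23 (standard error 0.12, limma adjusted p = 1.00). Cre12.g485150.v5.5, with the lowest and only negative one, had 162, 187 and 159.8 FPKM in the 1000 µM libraries, against 172, 197 and 156 FPKM in the 6 µM libraries. Its groups overlapped, at a log2 difference of -0.039 (standard error 0.13, limma adjusted p = 1.00).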

How the data were processed

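The file deposited by the authors gives FPKM values for each gene, with 1 column for each library. The submitters' processing notes name CASAVA, STAR and Cuffdiff 2.2.1. Settings, genome build, filters and strandedness: not given in the sources used here. Groups and replicate numbers came from the sample titles, and each column was matched to the title with the same manganese level and number. Identifiers were matched by locus tag to the RefSeq table of assembly Chlamydomonas_reinhardtii_v5.5 (17738 of 17741, all 10 genes included), which gave the positions and no symbols. No gene model in it overlaps the span of any of the 10.

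Values were transformed to log2(FPKM + 1), which understates differences of low genes, and genes averaging 1 FPKM or more entered a two-sided test in limma 3.58.1 under R 4.3.3 (eBayes with a trend, Benjamini-Hochberg adjustment, threshold 0.05). The test was checked on simulated data with independent noise for each gene and library. The real libraries shared deviations across genes, so that check does not show how the test performs on them. No count model was run, because FPKM values are not counts. Every one of the 10 genes is named with its values, and of the further genes the ones with the highest and the lowest signed log2 difference. Although the rule for the 10 genes uses no measured value, the members and lists were chosen with earlier results of these data known. Alternatives changed the pseudocount, filter, scaling, variance model, weights, replicate block and libraries used. Plots were made in Python 3.11.15 with matplotlib 3.10.9.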

Additional observations from a re-analysis of the deposited data

How the results depend on the processing

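None of the 10 genes, and none of the 9 further genes, passed the adjusted threshold in any of the 18 alternatives (0 in each). Over all tested genes the count of 0 became 2 with the same FPKM total per library, 26 with library quality weights and 3 without both libraries that stood apart, and ranged from 0 to 2 with 1 library left out (2 without 6 µM replicate 1, 1 without 1000 µM replicate 3). The 1 member at an unadjusted p under 0.05, RBCS1, became 0 with the same total and after quantile normalization, and 3 with quality weights (RBCS1, RCA1 and PRK1, against 10.1% of all tested genes), which weighted 1000 µM replicate 1 at 6.58. With 1 library left out it ranged from 0 (without 1000 µM replicate 3 or 6 µM replicate 3) to 1. The median log2 difference of the 10 genes moved from 0.16 to 0.067 with the same total and to 0.052 after quantile normalization, and ranged from 0.10 to 0.19 with 1 library left out. The median of all tested genes moved from 0.011 to 0.034 at a minimum mean of 5 FPKM and to -0.061 with the same total. RBCS2 reversed to -0.028 after quantile normalization, -0.083 without 1000 µM replicate 2 and -0.072 without 6 µM replicate 1, in a range up to 0.25 with 1 library left out. Cre12.g485150.v5.5 reversed to 0.0029 without 1000 µM replicate 3 and to 0.049 without 6 µM replicate 2, in a range down to -0.12 with 1 library left out, and it was -0.13 with the same total. The other 9 of the 10 genes stayed positive in all 18 alternatives. The changes of filter, variance model and replicate block cannot alter their log2 differences, so these alternatives say nothing about direction. For the 6 genes whose groups did not overlap, leaving libraries out, weights or another pseudocount cannot turn the difference negative either. Only the changes of scaling could have reversed those 6. The cause of the shifts was not tested. The labels do not say that replicate numbers pair flasks, so no pairing was assumed. Deviations of libraries 1, 2 and 3 from their group means correlated between the groups at -0.40, 0.51 and -0.50. The libraries that stood apart carry different numbers, so these correlations do not decide whether flasks were paired. With a replicate block 0 of the 10 genes passed, and 1 was at an unadjusted limma p under 0.05. The unknown depth limits all values here to the spread between libraries.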
